A study of Mus musculus with 384 samples.

Results

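The genes of oxidative phosphorylation, the subunits of respiratory complexes I to IV and of the ATP synthase (complex V), were followed in single granulocyte/macrophage progenitors (GMPs) of mouse bone marrow. The set was chosen by gene name, taking the mitochondrially encoded subunits and the Ndufa, Ndufb, Ndufc, Ndufs, Ndufv, Sdha to Sdhd, Uqcr, Cox4 to Cox8 and Atp5 names and leaving out names that contain -ps. It holds 101 of the 46078 gene rows. Of these, 13 are encoded by mitochondrial DNA and 88 by nuclear DNA, and 4 of the nuclear ones (Ndufa11b, Ndufb4c, Ndufs6b and Cox6c2) are annotated as processed pseudogenes. By complex, complex I has 7 mitochondrially encoded and 40 nuclear genes and complex II has 4 nuclear genes. Complex III has 1 and 8, complex IV has 3 and 19, and complex V has 2 and 17. Complexes were assigned by gene name alone. Ndufa4 and Ndufa4l2 thus count in complex I and Cox7a2l in complex IV, wherever their proteins act. The pseudogenes count by name too.

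RNA was read by SMART-seq2, a full-length cDNA method, from single cells sorted into 4 plates of 96 wells each. There were 3 BCR-ABL sets (replicates 1, 2 and 4) and 1 Control set. The cells came from C57Bl/6 mice of the Scl-tTA::TRE-BCR/ABL system, in which a tetracycline-regulated activator under the Scl promoter drives the BCR/ABL oncogene when doxycycline is withheld. Doxycycline was given at 20 mg/L in drinking water, expression was induced at 5 weeks of age by its withdrawal, and mice were analysed 5 to 6 weeks later. The doxycycline dose, age and timing are listed alike for the BCR-ABL and the Control wells. The labels name the last set only as control, and whether its mice carried the transgenes is not given in the sources used here. GMPs were gated as lin-/c-Kit+/Sca-1-/CD34+/FcγR+ cells. A well counted as a usable cell from 50000 gene reads and 1000 detected genes upwards, a limit passed by 76, 61 and 92 cells of BCR-ABL sets 1, 2 and 4 and by 94 of the Control set, 323 of 384 in all.

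The respiratory chain passes electrons from NADH (complex I) and succinate (complex II) through complex III to oxygen at complex IV, and the proton gradient that this builds drives ATP synthesis at complex V. Complex II is encoded by nuclear genes alone, whereas the other complexes are built from products of both genomes. Mitochondrial DNA is transcribed as long precursors from each strand, and mt-Nd6 is the one protein gene read from the strand opposite to the rest. GMPs give rise to neutrophils and monocytes, and the transcription factors Gfi1 and Irf8 are known for promoting the neutrophil and the monocyte fate. Transcripts were measured here, not protein or respiration.

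Kept cells of the 4 sets held 121378632 to 140995697 reads on genes, with a median of 1385349 to 2084608 per cell in BCR-ABL sets and 1200640 per cell in the Control set. Gate genes were detected in every set. Kit had 256, 240 and 314 CPM (reads of a gene per 1000000 reads on genes) in BCR-ABL sets 1, 2 and 4, against 239 CPM in the Control set, and Cd34 had 146, 180 and 158 CPM against 440 CPM. Lymphoid markers summed to under 1 CPM in each set, and Ly6a, which encodes Sca-1, had 1.63, 3.46 and 3.43 CPM in the BCR-ABL sets and 1.29 CPM in the Control set. Xist, transcribed from the inactive X chromosome, had 324, 0 and 0.156 CPM in BCR-ABL sets 1, 2 and 4 and 461 CPM in the Control set, and 3 genes of the respiratory set are X-linked. Of these, Ndufa1 had 72.8, 76.9 and 72.4 CPM in the BCR-ABL sets and 84.7 CPM in the Control set, Ndufb11 had 99.1, 98.7 and 97.6 CPM and 109.7 CPM, and Cox7b had 192, 191 and 155 CPM and 205 CPM. How the Xist difference bears on them was not tested. The labels do not say that each set is 1 animal, so p-values measure the spread between sets, part of which may be technical, and the lone Control set cannot be told apart from its condition.

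Some mitochondrially encoded genes have near-identical copies in nuclear DNA, and this bears on which of them the counts can follow. Of the 50-base windows of mt-Co2, 100% also occur in another annotated gene, and for mt-Co3, mt-Atp6, mt-Nd4l and mt-Nd3 the share was 99.9%, 99.5%, 98.8% and 98.0%. The share was 62.2% for mt-Nd4, 51.1% for mt-Co1, 8.2% for mt-Nd2, 7.6% for mt-Nd5 and 0 for mt-Nd1, mt-Cytb, mt-Nd6 and mt-Atp8. A stretch of mt-Co2 (chrM:7325-7384, plus strand, mm10), the catalytic-core subunit II of cytochrome c oxidase, is shown with the same stretch of its copy on chromosome 1, Gm28661 (chr1:24615194-24615253, minus strand), because no base differs between them. A stretch of mt-Nd1 (chrM:3199-3258, plus strand), a gene with no shared window, stands below them for contrast.
mt-Co2: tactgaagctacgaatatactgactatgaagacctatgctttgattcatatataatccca
Gm28661: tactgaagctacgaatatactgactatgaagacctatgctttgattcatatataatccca
mt-Nd1: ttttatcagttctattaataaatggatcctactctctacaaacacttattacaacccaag

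Promoter windows from RefSeq (GRCm38.p6, 250 bases before to 50 bases after each start) matched 68 of the 84 nuclear protein-coding genes. The letters CCGGAAG, the core read by ETS factors such as GABP, were found on either strand in 16 of them (23.5%), against 9.93% of the promoters of all 27025 genes. GCATGCGC, the core of the NRF1 site, was in 10 (14.7%, against 3.05% of all), AAGATGGCG, read by YY1, in 7 (10.3%, against 1.64%), and CCAAT, read by NF-Y, in 30 (44.1%, against 41.06%). Windows are shown for the ATP synthase subunit beta gene Atp5b (chr10:128083057-128083356, plus strand), the iron-sulfur subunit gene of complex II Sdhb (chr4:140961021-140961320, plus strand) and its membrane anchor gene Sdhd (chr9:50603800-50604099, minus strand), because their transcripts are among those that differ most between the cell classes described below. Capitals mark the letters searched, in either orientation.
Atp5b: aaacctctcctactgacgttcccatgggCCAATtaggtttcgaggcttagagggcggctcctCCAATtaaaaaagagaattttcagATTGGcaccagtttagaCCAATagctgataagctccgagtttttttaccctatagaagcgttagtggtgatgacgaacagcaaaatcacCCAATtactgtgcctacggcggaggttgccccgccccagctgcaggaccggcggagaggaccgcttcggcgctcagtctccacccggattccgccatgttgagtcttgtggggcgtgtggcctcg
Sdhb: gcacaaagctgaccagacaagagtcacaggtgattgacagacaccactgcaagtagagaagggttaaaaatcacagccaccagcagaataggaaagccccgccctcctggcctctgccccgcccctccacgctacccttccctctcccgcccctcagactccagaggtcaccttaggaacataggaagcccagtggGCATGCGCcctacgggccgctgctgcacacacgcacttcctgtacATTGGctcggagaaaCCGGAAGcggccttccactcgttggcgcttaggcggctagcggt
Sdhd: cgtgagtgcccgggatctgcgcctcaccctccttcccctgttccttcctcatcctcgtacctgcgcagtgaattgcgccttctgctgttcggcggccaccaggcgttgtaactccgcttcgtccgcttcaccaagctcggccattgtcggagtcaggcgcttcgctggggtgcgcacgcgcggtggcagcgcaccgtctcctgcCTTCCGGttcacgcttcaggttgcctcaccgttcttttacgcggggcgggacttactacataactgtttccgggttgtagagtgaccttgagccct

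The Atp5b window holds CCAAT in 5 places, beginning 222, 188, 164, 147 and 75 bases before the start, and the third of these is on the opposite strand. The Sdhb window holds the NRF1 letters 54 bases before the start, CCAAT on the opposite strand 9 bases before it and the ETS letters 6 bases after it. The Sdhd window holds the ETS letters on the opposite strand, 46 bases before the start. None of these matches overlaps another, and a match describes the letters only.

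Levels per transcript length set the mitochondrially encoded genes into a high and a low group that follows their shared sequence. The plot of level against shared windows shows mt-Cytb, the cytochrome b subunit of complex III, at a mean of 4558 RPKM (CPM per kb of exon) over the 4 sets. Among nuclear genes the highest in each complex were Ndufa2 (319) in complex I, Sdhd (237) in complex II, Uqcrfs1, the Rieske iron-sulfur protein (242), in complex III, Cox8a (655) in complex IV and Atp5b (543) in complex V, all in RPKM. The genes with 98.0% or more shared windows were low in every set: mt-Co2 had 4.80, 6.62 and 6.43 CPM in BCR-ABL sets 1, 2 and 4 and 5.38 CPM in the Control set, where mt-Co1, of the same complex and precursor strand, had 6529, 6027 and 7460 CPM and 6359 CPM. Their copies on chromosome 1 were low too, with 2.92, 4.65 and 3.74 CPM of Gm28661 in the BCR-ABL sets and 3.24 CPM in the Control set. How reads with more than 1 alignment were counted is not given in the sources used here, and the summary row for them is 0 in every well, so levels of mt-Co2, mt-Co3, mt-Atp6, mt-Nd3 and mt-Nd4l are uncertain. mt-Atp8 shares no window but 21.1% of its 204 bases overlap mt-Atp6, and it had 1.33 to 1.79 CPM. The strand setting of the counting is not given either, so genes that overlap others are uncertain, among them Ndufa2, which shares 11.5% of its exon bases with Tmco6. For the same reason counts of mt-Nd6 may hold reads of the precursor from the opposite strand.

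**Figure D1:**
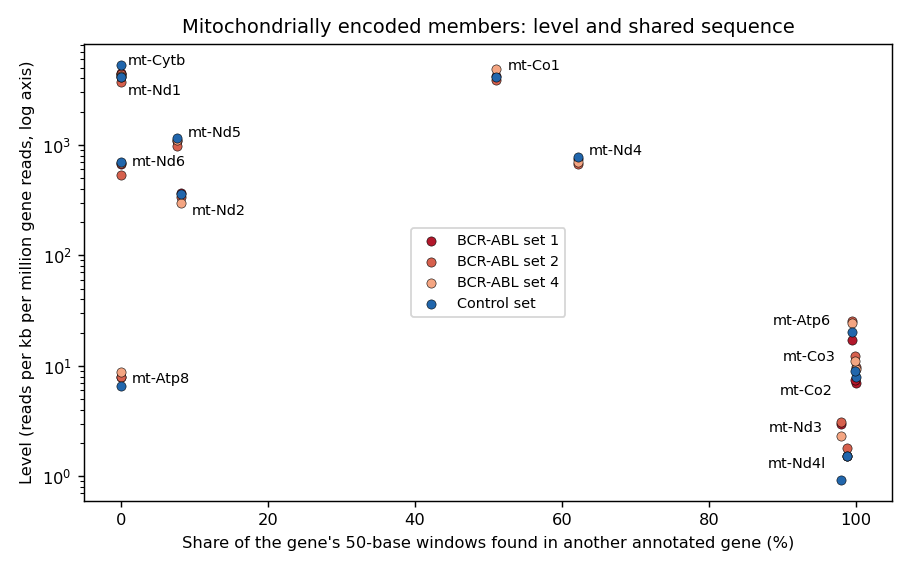
Level (RPKM, log axis) of the 13 mitochondrially encoded genes against the share of their 50-base windows found in another annotated gene (percent), 1 point per set. The 5 genes at 98.0% or more lie far below mt-Co1 at 51.1%, mt-Nd4 at 62.2% and the genes with little shared sequence, other than mt-Atp8.

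BCR-ABL sets were then compared with the Control set over all kept cells. The mitochondrially encoded genes took 1.96%, 1.79% and 1.98% of gene reads in BCR-ABL sets 1, 2 and 4, against 2.04% in the Control set. All 3 BCR-ABL sets were below the Control set, by a mean of 0.124 percentage points (BCR-ABL mean 1.91 ± 0.10%, SD, n = 3), and the exact two-sided permutation p was 0.5, where 0.25 is the smallest that 3 sets against 1 allow. The nuclear genes took 1.91%, 1.94% and 1.74% in the BCR-ABL sets, against 1.95% in the Control set (difference -0.092 percentage points, exact permutation p = 0.5). The ratio of mitochondrially encoded to nuclear reads was 1.03, 0.927 and 1.14 in BCR-ABL sets 1, 2 and 4, and 1.04 in the Control set lay within their range. The share of spike-in reads was 0.202%, 0.212% and 0.207% in BCR-ABL sets 1, 2 and 4 against 0.235% in the Control set, and its part in these shares was not tested.

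**Figure D2:**
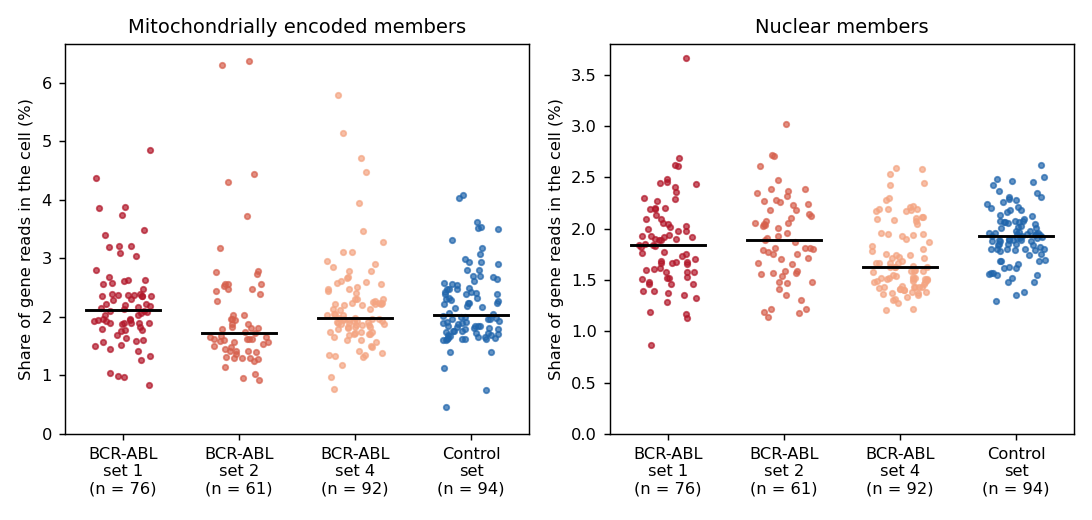
Share of each kept cell's gene reads (percent) on mitochondrially encoded genes (left panel) and on nuclear genes of the respiratory set (right panel), 1 point per cell, with the bar at the median of the set. The 4 sets overlap over most of their range in both panels, with medians of the mitochondrially encoded share between 1.73% and 2.11%.

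By complex, the share of mt-Cytb and those of nuclear complexes I and IV were on average below the Control set by more than the SD between BCR-ABL sets. mt-Cytb, the one mitochondrially encoded subunit of complex III, took 0.512%, 0.5001% and 0.466% of gene reads in BCR-ABL sets 1, 2 and 4, against 0.608% in the Control set. Every BCR-ABL set was below the Control set, and the exact permutation p of 0.25 is the smallest possible here. The mitochondrially encoded subunits of complex IV, nearly all mt-Co1, took 0.669 ± 0.073% in BCR-ABL sets (SD, n = 3) and 0.637% in the Control set, and those of complex I took 0.748 ± 0.053% and 0.789%. Both differences were smaller than the SD between the BCR-ABL sets. Nuclear subunits of complex I took 0.546 ± 0.018% in BCR-ABL sets and 0.588% in the Control set, and those of complex IV took 0.308 ± 0.015% and 0.336% (SD, n = 3, exact permutation p = 0.5 for each). The mitochondrial ribosomal RNAs, which are not in the set, took 1.13 ± 0.036% in BCR-ABL sets and 1.08% in the Control set.

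Gene by gene, edgeR's quasi-likelihood test called none of the 20324 genes tested at an adjusted p under 0.05, and 1459 (7.18%) had an unadjusted p under 0.05. Of the 97 respiratory genes that passed the filter on low counts, none was higher and 1 was lower at that unadjusted level. This was mt-Cytb, with 5118, 5001 and 4660 CPM in BCR-ABL sets 1, 2 and 4 and 6077 CPM in the Control set (log2 fold change -0.28, SE 0.10, unadjusted p = 0.037, adjusted p = 0.669, edgeR). Without set 1 or without set 2 it did not pass the unadjusted level either. DESeq2 called 562 genes (3.27% of those it gave an adjusted p), none of them in the respiratory set. The 4 genes that did not pass the filter were Ndufa4l2, Cox7b2, Cox8b and Cox8c, each with at most 3 reads in any set.

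Most nuclear respiratory genes had values slightly below the Control set. The median log2 fold change was -0.08 over the 84 nuclear genes, with 65 negative. Over all 20324 genes tested the median was 0.05, with 9305 negative. By complex the nuclear medians were -0.10 in complex I (32 of 39 negative), -0.16 in complex II (3 of 4), 0.03 in complex III (4 of 8), -0.11 in complex IV (14 of 16) and -0.04 in complex V (12 of 17). All 3 BCR-ABL sums lay below the Control sum for 51 of the 97 tested genes and above it for 8, where 27.8% and 23.2% of all genes did so. Among the 13 mitochondrially encoded genes these counts were 4 and 2, and their median was 0.09, or -0.11 over the 7 that reach 50 CPM in a set. These genes share libraries, so the counts describe 4 sums and are no test.

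**Figure D3:**
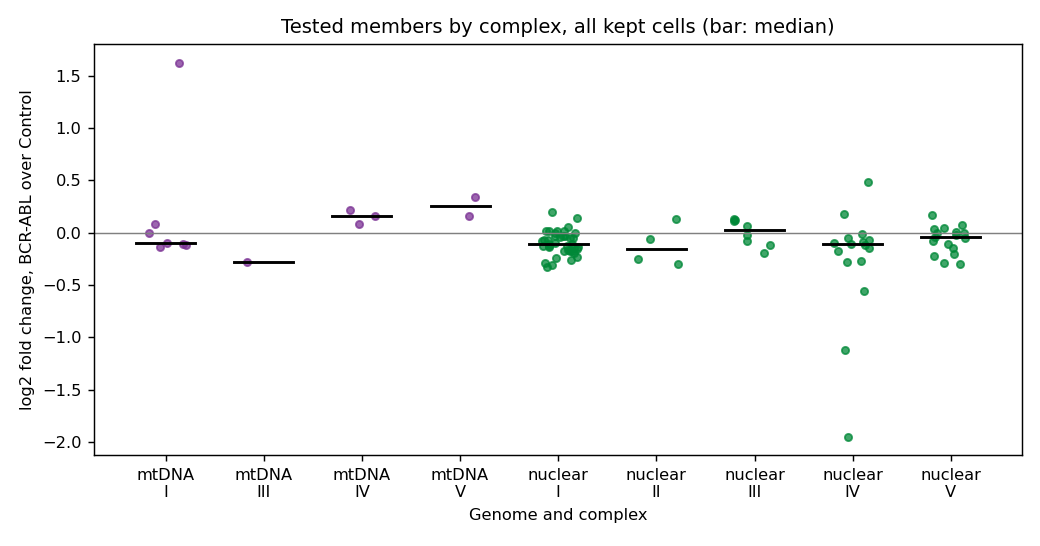
Log2 fold change of BCR-ABL over Control for each tested gene over all kept cells, by genome and complex, with the bar at the median. Nuclear complexes I, II, IV and V have medians between -0.16 and -0.04, and the points farthest from 0 (mt-Nd3, Cox6a2 and Cox4i2) are genes with under 2 CPM in every set.

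The nuclear gene with the highest level per transcript length in each complex had small fold changes. Ndufa2 had 175, 192 and 162 CPM in BCR-ABL sets 1, 2 and 4 and 202 CPM in the Control set, Cox8a had 412, 419 and 349 CPM and 442 CPM, and Uqcrfs1 had 332, 340.3 and 335 CPM and 312 CPM. Atp5b had 2431, 2464 and 2032 CPM in the BCR-ABL sets and 2272 CPM in the Control set, and Sdhd had 287, 311 and 266 CPM and 305 CPM, with the Control set inside the BCR-ABL range. Log2 fold changes of these genes lay between -0.18 and 0.12, with adjusted p from 0.876 to 0.988 (edgeR).

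The genes with the largest positive and negative values were mostly rare transcripts. mt-Nd3 had 1.05, 1.09 and 0.81 CPM in BCR-ABL sets 1, 2 and 4 and 0.32 CPM in the Control set, with a log2 fold change of 1.62 (SE 0.77, edgeR adjusted p = 0.761). Its chromosome 1 copy Gm28438, which holds 98.0% of its windows, ran the other way, with 0.18, 0.30 and 0.16 CPM in the BCR-ABL sets and 12.2 CPM in the Control set. Gm28438 was read in 18, 23 and 18 cells of BCR-ABL sets 1, 2 and 4 but in 93 of the 94 cells of the Control set, and mt-Nd3 in 55, 47 and 58 cells but in 25. The value of mt-Nd3 thus cannot be told apart from how reads were assigned to it or its copy, and the copy differed by far more CPM. For the best-matching copies of mt-Co2, mt-Co3 and mt-Atp6, also on chromosome 1, the Control value lay within the BCR-ABL range. The source of the Gm28438 difference, including the strain background of the sets, was not tested.

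Cytochrome c oxidase has tissue-specific isoforms, and these progenitors held mostly the common ones. Cox4i1, the general isoform of subunit 4, had 1019, 999.5 and 954 CPM in BCR-ABL sets 1, 2 and 4 and 1072 CPM in the Control set, against 1.59, 0.16 and 0.57 CPM and 1.72 CPM for Cox4i2, known from lung. The muscle isoform Cox6a2 had 0, 0.11 and 0.50 CPM in the BCR-ABL sets and 0.79 CPM in the Control set, with reads in 0, 2 and 4 BCR-ABL cells and 6 Control cells. Log2 fold changes were -1.12 (SE 1.28) for Cox4i2 and -1.95 (SE 2.23) for Cox6a2. Cox6a1, its general counterpart, had 260.3, 259.8 and 232 CPM and 307 CPM, so every BCR-ABL set was below the Control set (log2 fold change -0.27, SE 0.15, adjusted p = 0.791, edgeR). The muscle isoform Cox7a1 had 0.25 to 0.57 CPM in the BCR-ABL sets and 0.64 CPM in the Control set, where Cox7a2 had 212, 212 and 180 CPM and 214 CPM.

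Cox6b2, an isoform of subunit 6b best known from testis, was an exception among these isoforms. It had 27.7, 28.2 and 50.7 CPM in BCR-ABL sets 1, 2 and 4 and 25.6 CPM in the Control set, and was read in 67, 55 and 88 cells of those sets and in 78 cells of the Control set. The BCR-ABL sets were above the Control set, set 4 the most, and the test did not call the difference (log2 fold change 0.49, SE 0.43, adjusted p = 0.855, edgeR). Its general counterpart Cox6b1 had 394, 392 and 333 CPM and 407 CPM. Ndufv3, an accessory subunit of complex I, had 111, 109 and 137 CPM in the BCR-ABL sets and 104 CPM in the Control set (log2 fold change 0.20, SE 0.19), and Ndufa12, another accessory subunit, had 64.7, 66.1 and 50.2 CPM and 76.7 CPM (log2 fold change -0.32, SE 0.23).

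Of the genes for the ATP synthase c subunit, which encode the same mature protein, Atp5g3 had 306, 328 and 252 CPM in BCR-ABL sets 1, 2 and 4 and 300.1 CPM in the Control set, Atp5g1 had 31, 35.2 and 24.7 CPM and 29.2 CPM, and Atp5g2 had 4.11, 3.44 and 3.92 CPM and 3.94 CPM. For all 3 genes the Control value lay within the BCR-ABL range. Cox7a2l, known for a role in joining complexes III and IV, had 113, 108 and 169 CPM in the BCR-ABL sets and 116 CPM in the Control set. Whether it does so in these mice was not tested. Ndufa4 had 347, 368 and 339 CPM and 400.4 CPM, and its hypoxia-linked relative Ndufa4l2 had no read in any BCR-ABL cell and 3 reads in the Control set.

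Genes beyond the name rule that serve the same pathway were counted at the same unadjusted threshold, which 7.18% of all genes passed. Of 47 assembly factors tested, 1 was lower (Ndufaf7, a methyltransferase of complex I assembly, 42.1, 38 and 40.5 CPM against 65.1 CPM) and none was higher. Of 17 partners outside the name rule, such as nucleotide and phosphate carriers, 1 was higher and 1 was lower. Ucp2, a carrier of the inner membrane, had 1024, 1012 and 1027 CPM in BCR-ABL sets 1, 2 and 4 and 1503 CPM in the Control set (log2 fold change -0.54, SE 0.09, unadjusted p = 0.0031, adjusted p = 0.594, edgeR). Gpd2, the glycerol phosphate dehydrogenase that feeds electrons to the chain, had 71.4, 73 and 62.5 CPM in the BCR-ABL sets and 38.9 CPM in the Control set (log2 fold change 0.85). Of 29 genes for mitochondrial transcription and RNA, 2 were higher (the helicase gene Supv3l1 and the elongation factor gene Tefm) and 1 was lower (Mterf3, a negative regulator of transcription). Of 18 regulators of nuclear respiratory genes, 1 was higher, which was Myc, with 512, 564 and 506 CPM against 396 CPM, and none of 23 tricarboxylic acid (TCA) cycle genes passed. Others among the 3 smallest p of their lists, all with an unadjusted p above 0.05, were the assembly factor genes Bcs1l (log2 fold change -0.39) and Acad9 (0.36), the channel gene Vdac2 (0.28), the regulators Hif1a (0.61) and Gabpb2 (-0.40), and Idh3g (-0.29), Dlat (0.52) and Pdk2 (1.33) of the TCA list.

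Cells were next split by the 2 fate factors, since the classes were unequal between the sets. Each cell was thinned to 674952 gene reads, and a cell with at least 10 reads of Gfi1 but not of Irf8 was called Gfi1-only, the reverse Irf8-only, and one with at least 10 of each a cell with both. BCR-ABL sets 1, 2 and 4 held 35, 16 and 62 Gfi1-only cells and the Control set 7, where Irf8-only cells numbered 13, 16 and 0, against 51 in the Control set. Cells with both numbered 14, 20 and 14, against 28 in the Control set, and 33 kept cells were too shallow to class. Neither factor belongs to the respiratory set. A set entered a comparison of classes only with at least 8 cells of each, so the Gfi1-only cells of the Control set did not enter.

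The summed shares of the 2 genomes gave opposite orders between these classes. In Gfi1-only cells the mitochondrially encoded genes took 2.14%, 1.94% and 2.01% of gene reads in BCR-ABL sets 1, 2 and 4, against 1.69%, 1.69% and 1.77% in cells with both. The nuclear genes took 1.69% in each of the 3 sets in Gfi1-only cells, against 2.01%, 1.91% and 1.90% in cells with both. The groups did not overlap in either share, and each paired difference (0.315 and -0.255 percentage points) had the same sign in 3 of 3 sets, with an exact sign-flip p of 0.25, the smallest 3 sets can give. By complex, most of the nuclear difference was in complex V, at 0.578 ± 0.018% in Gfi1-only cells and 0.745 ± 0.050% in cells with both (SD, n = 3), lower in 3 of 3 sets. The most abundant complex V transcripts, Atp5b and Atp5a1, weigh most in this sum. Of the 17 nuclear complex V genes, 6 had positive and 11 negative log2 fold changes, with a median of -0.11. Nuclear complex IV took 0.297 ± 0.0065% and 0.296 ± 0.0093% and was higher in Gfi1-only cells in 2 of 3 sets. The ratio of mitochondrially encoded to nuclear reads was 1.27, 1.15 and 1.19 in Gfi1-only cells and 0.840, 0.883 and 0.931 in cells with both. In the 2 sets with Irf8-only cells that class had ratios of 0.871 and 0.815, and its difference from Gfi1-only cells was 0.366 (exact p = 0.5, the smallest 2 sets can give).

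**Figure D4:**
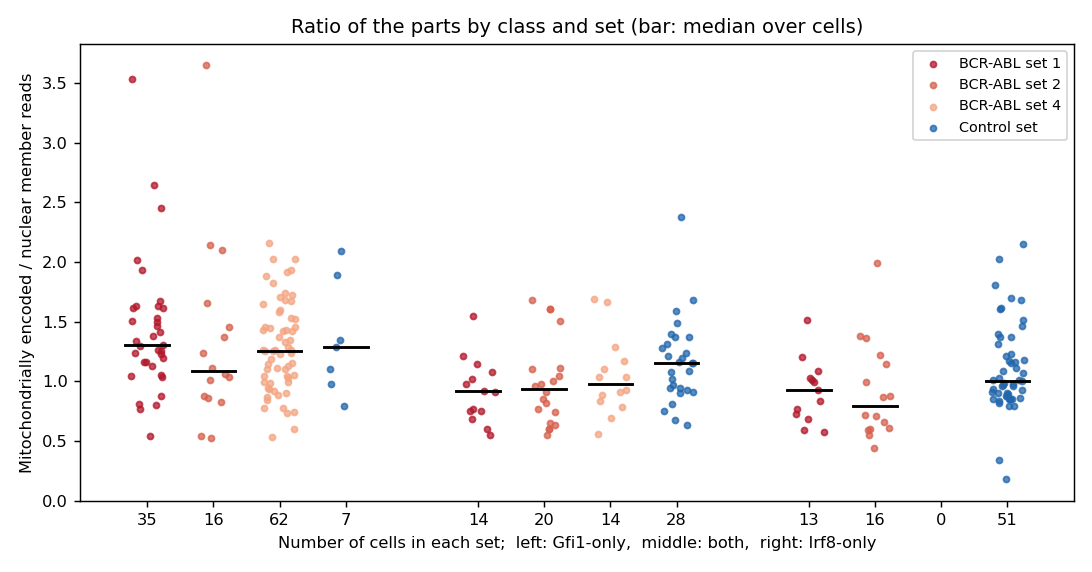
Ratio of mitochondrially encoded to nuclear reads of the respiratory set in each cell, by class (Gfi1-only, both, Irf8-only, left to right) and set, with the bar at the median and the number of cells below. Medians of the Gfi1-only cells lie above 1 in every set, those of BCR-ABL cells of the other classes lie below 1, and the classes overlap widely cell by cell.

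With classes made at 15 CPM in unthinned cells, an alternative limit, the Control set had 12 Gfi1-only cells and entered. The ratio was 1.29, 1.15 and 1.22 in Gfi1-only cells of BCR-ABL sets 1, 2 and 4 and 1.45 in those of the Control set, against 0.845, 0.910, 0.932 and 1.05 in cells with both (difference 0.343, higher in 4 of 4 sets, exact sign-flip p = 0.125, the smallest 4 sets can give). The Control set thus had the highest value in both classes. Of the mitochondrially encoded genes that reach 10 CPM, 8 of 8 were higher in Gfi1-only cells in each of the 4 sets, and of 79 such nuclear genes 13 were higher and 26 lower in each. The share of all genes on 1 side in every set was not computed, so these counts stand without a background.

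Gene by gene, edgeR with the set as a block called 1 gene among 15680 between Gfi1-only cells and cells with both, which was Irf8 itself, and none of the respiratory set. Of the 97 respiratory genes tested, 11 were higher and 15 lower with p below 0.05 before adjustment, where 6.65% of all genes were higher and 7.14% were lower. Without set 1, 2 or 4 the counts were 4, 6 and 7 higher and 10, 12 and 6 lower. Of all genes in those fits, 1254 of 14863, 1830 of 15106 and 1532 of 14670 passed in either direction. DESeq2 called 1235 genes (8.54%) and 14 of the respiratory set, 5 higher and 9 lower. Against Irf8-only cells, which rest on 2 sets, edgeR called 1 gene of 14319, again Irf8, and 7 respiratory genes were higher and 20 lower before adjustment, where 7.0% and 6.47% of all genes were. DESeq2 called 1090 genes there (8.25%) and 12 of the respiratory set. Both comparisons share the Gfi1-only cells of 2 sets.

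Mitochondrially encoded genes were higher throughout in Gfi1-only cells than in cells with both, by their values. All 13 had a positive log2 fold change there, with a median of 0.35, against 0.03 over all genes. Of all 15680 genes tested 8217 were positive. The 13 include the genes with nearly all windows shared, whose levels are uncertain. Against Irf8-only cells 11 of the 13 were positive, where 7356 of all 14319 genes were. mt-Nd6 had 419, 358 and 383 CPM in Gfi1-only cells of BCR-ABL sets 1, 2 and 4, against 276, 254 and 254 CPM in cells with both. The classes did not overlap (log2 fold change 0.54, SE 0.08, unadjusted p = 0.0018, adjusted p = 0.244, edgeR). Whether the mt-Nd6 counts include reads of the opposite strand was not tested. mt-Nd4, a core subunit of complex I, had 1237, 1179 and 1004 CPM in Gfi1-only cells and 756, 815 and 796 CPM in cells with both, again without overlap (log2 fold change 0.51, SE 0.10, adjusted p = 0.258, edgeR). mt-Co1 had 7044, 6501 and 7451 CPM and 6026, 5941 and 6755 CPM, which overlapped between sets but was higher within each set (log2 fold change 0.15, SE 0.04).

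Nuclear genes with lower values in Gfi1-only cells included subunits of the ATP synthase and of complex II. The nuclear median was -0.09 against cells with both, with -0.38 in complex II, -0.20 in complex III, -0.11 in complex V, -0.08 in complex I and -0.04 in complex IV. Taken set by set it was -0.08, -0.07 and -0.02 in BCR-ABL sets 1, 2 and 4, and it was -0.02 with the limit between classes at 20 reads. Atp5b, the catalytic beta subunit whose promoter is shown above, had 1973, 1779 and 1809 CPM in Gfi1-only cells of BCR-ABL sets 1, 2 and 4, against 2958, 2448 and 2578 CPM in cells with both. The groups were apart in every set (log2 fold change -0.54, SE 0.05, unadjusted p = 0.00025, adjusted p = 0.244, edgeR). Atp5a1, the alpha subunit, had 1298, 1099 and 1299 CPM and 1942, 1534 and 1751 CPM (log2 fold change -0.51, SE 0.06), and the gamma subunit gene Atp5c1 and the peripheral stalk gene Atp5f1 had log2 fold changes of -0.37 and -0.44.

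In complex II, Sdhb had 177, 235 and 195 CPM in Gfi1-only cells of BCR-ABL sets 1, 2 and 4 and 308, 254 and 296 CPM in cells with both, with the smallest gap in set 2 (log2 fold change -0.52, SE 0.16, adjusted p = 0.310, edgeR). Sdhd had 227, 234 and 237 CPM and 304, 309 and 310 CPM, nearly the same in every set of a class (log2 fold change -0.42, SE 0.08, adjusted p = 0.252). Sdha, the flavoprotein subunit, had 463, 473 and 445 CPM and 573, 550 and 609 CPM. In complex I, Ndufs1, the largest iron-sulfur subunit, had 134, 110 and 105 CPM in Gfi1-only cells and 210, 138 and 156 CPM in cells with both (log2 fold change -0.54, SE 0.11). In complex III, the core subunit gene Uqcrc1 had 573, 697 and 667 CPM and 776, 799 and 860 CPM.

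Of the 84 nuclear genes 29 had positive values in Gfi1-only cells against cells with both, and 5 of them passed the unadjusted level. Of the 79 that reach 10 CPM, 18 were higher and 29 lower in every one of the 3 sets. How many of all genes keep 1 side in every set was not computed here either, so these counts describe the 79 genes only. Cox7a2l had 142, 133 and 172 CPM in Gfi1-only cells of BCR-ABL sets 1, 2 and 4, against 87.7, 111 and 139 CPM in cells with both, higher within each set (log2 fold change 0.41, SE 0.14, unadjusted p = 0.040, adjusted p = 0.347, edgeR). Atp5s, a coupling factor of the ATP synthase, had 31.3, 34.7 and 36.5 CPM and 17.5, 16.9 and 26 CPM. Cox6b2 had 35.1, 55.8 and 53.1 CPM in Gfi1-only cells and 17.1, 20.6 and 51 CPM in cells with both, so set 4 showed little difference (log2 fold change 0.83, SE 0.33). In the Control set Cox6b2 had 31.2 CPM in cells with both, above BCR-ABL sets 1 and 2 and below set 4. In Irf8-only cells it had 22.1 and 20.9 CPM in BCR-ABL sets 1 and 2 and 19.3 CPM in the Control set. Its order over all kept cells thus did not hold in each class, and the part of class sizes in it was not tested.

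**Figure D5:**
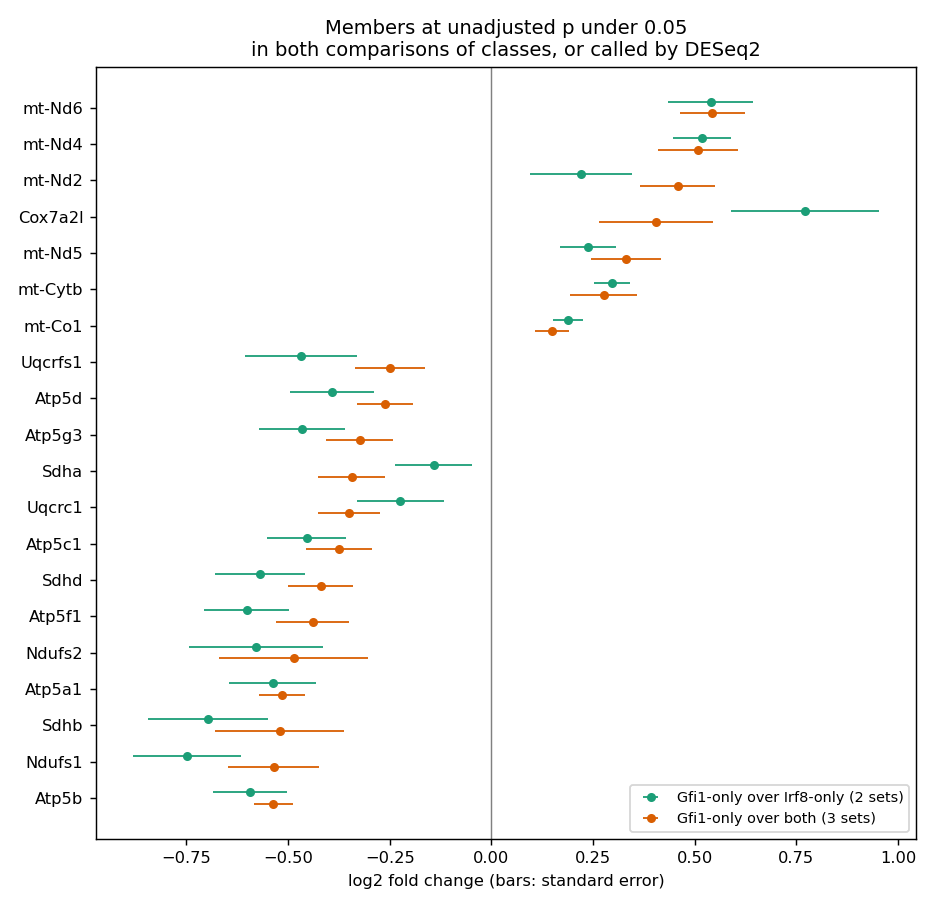
Log2 fold change with its standard error for 20 respiratory genes, Gfi1-only over Irf8-only cells (2 sets, green) and Gfi1-only cells over cells with both (3 sets, orange). The genes are those at an unadjusted p under 0.05 in both comparisons or called by DESeq2, so their distance from 0 was chosen, and mt-Nd6 and mt-Nd4 lie between 0.51 and 0.54 where Atp5b, Ndufs1, Atp5a1 and Sdhb lie between -0.75 and -0.51.

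Other measures moved with these classes. Spike-in reads took 0.205%, 0.282% and 0.215% in Gfi1-only cells of BCR-ABL sets 1, 2 and 4, against 0.121%, 0.170% and 0.142% in cells with both, and median genes per cell were 9209, 8744.5 and 9334 against 10393, 10024 and 10198. All 6 basophil and mast markers summed to 611, 725 and 313 CPM in Gfi1-only cells and 60.2, 67.8 and 154 CPM in cells with both. Of the list, Fcer1a was at 0 in set 2 in both classes, and Fcer1a and Prss34 in set 4. Without cells of 300 CPM or more of basophil, mast, megakaryocyte and erythroid markers, 12 respiratory genes were higher and 16 lower before adjustment. Of all 15584 genes, 2119 passed there in either direction. The 13 neutrophil markers summed to 79247, 73233 and 72778 CPM and 53356, 68349 and 60106 CPM, the 10 monocyte markers to 1000.3, 937 and 943 CPM and 1488, 1461 and 1215 CPM, and the 5 megakaryocyte markers to 32.1, 58.8 and 39 CPM and 4.55, 6.41 and 22 CPM. Within sets, the mitochondrially encoded share followed the spike-in share from cell to cell, with Spearman's rho of 0.61, 0.49 and 0.38 in 76, 61 and 92 BCR-ABL cells and 0.52 in 94 Control cells, points that share a library and a denominator. The nuclear share ran against the spike-in share, with rho of -0.38, -0.42 and -0.09 in those BCR-ABL sets and -0.31 in the Control set. With gene reads per cell, rho was -0.64, -0.46, -0.53 and -0.47 for the mitochondrially encoded share. For the nuclear share it was 0.29, 0.28, 0.06 and 0.08. Among cells with 0.1 to 0.3% spike-in reads only 2 sets had enough cells, and 2 respiratory genes were higher and 3 lower before adjustment, where 1169 of all 14654 genes passed. In those sets the share differences kept their direction, at 0.132 to 0.417 percentage points for the mitochondrially encoded genes and -0.183 to -0.106 for the nuclear genes, and the nuclear median was -0.0014. The part of depth and RNA content in the comparison was not otherwise tested.

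Genes around the chain had mostly negative values, as the nuclear subunits did, in Gfi1-only cells against cells with both. At an unadjusted p under 0.05, where 7.14% of all genes were lower and 6.65% higher, 11 of 23 TCA cycle genes were lower and 1 was higher, with a median of -0.32, and among the lowest p were Mdh2 (log2 fold change -0.34) and Idh2 (-0.32), enzymes of the cycle. Of 17 partners 7 were lower and none was higher, among them the ADP/ATP carrier genes Slc25a4 (-0.85) and Slc25a5 (-0.53) and the phosphate carrier gene Slc25a3 (-0.34). Of 29 genes of mitochondrial transcription and RNA 4 were lower, with Lrpprc, which stabilises mitochondrial messenger RNA, at -0.80, Fastk at -0.49 and Elac2 at -0.62. Of 47 assembly factors 4 were lower and 1 was higher, near the share over all genes, with Ecsit at -1.35, Ndufaf4 at -0.70 and Cox14 at 0.43. Of 16 regulators 2 were higher and 3 were lower, with Pprc1 at -0.78, Tfe3 at -1.89 and Yy1 at 0.58. The mitochondrial ribosomal RNA mt-Rnr2 had a log2 fold change of 0.30 (SE 0.04, adjusted p = 0.244, edgeR).

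BCR-ABL was last compared with Control within classes. In cells with both, the mitochondrially encoded share was 1.69%, 1.69% and 1.77% in BCR-ABL sets 1, 2 and 4 and 2.12% in the Control set, below it in all 3. Other measures moved with it: spike-in reads took 0.121%, 0.170% and 0.142% in these BCR-ABL cells and 0.228% in the Control ones, and the 10 monocyte markers summed to 1488, 1461 and 1215 CPM and 2372 CPM. Irf8 itself had 452, 446 and 278 CPM in the BCR-ABL cells and 1011 CPM in the Control ones. The part of these measures in the difference was not tested. edgeR called none of 16410 genes there and 980 (5.97%) at an unadjusted p under 0.05, and of the 97 respiratory genes none was higher and 4 were lower (mt-Cytb, mt-Nd4, mt-Nd5 and mt-Nd6), while DESeq2 called 292 genes and none of the set. The number lower was 2 without set 1 and with the limit between classes at 5 reads, and 1 at 20 reads. mt-Cytb had 4136, 4628 and 4308 CPM in BCR-ABL cells with both and 6475 CPM in Control cells with both (log2 fold change -0.53, SE 0.09, unadjusted p = 0.003, adjusted p = 0.814, edgeR). mt-Nd6 had 276, 254 and 254 CPM and 386 CPM (log2 fold change -0.52), also below the Control set in each.

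In Irf8-only cells, BCR-ABL sets 1 and 2 were set against the Control set, a comparison added once class sizes were known. edgeR called none of 16032 genes and 834 (5.2%) at an unadjusted p under 0.05, with 1 respiratory gene higher and 1 lower, and DESeq2 called 157. Atp5b had 2713 and 2956 CPM in BCR-ABL Irf8-only cells and 2341 CPM in Control ones (log2 fold change 0.31, SE 0.09, adjusted p = 0.818, edgeR), and mt-Cytb had 4591 and 4654 CPM and 5865 CPM (log2 fold change -0.31, SE 0.06). The nuclear median was 0.09, with 60 of 84 genes positive, against 0.00 over all genes, of which 8052 of 16032 were positive.

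In Gfi1-only cells, made at 15 CPM, edgeR called none of 17291 genes and 2657 (15.4%) at an unadjusted p under 0.05, of which 6 respiratory genes were higher and 7 lower. The median over all genes was 0.20 there and -0.12 over nuclear respiratory genes, and the Control sum held 12 cells. Without set 1, 2 or 4 the counts were 0, 5 and 2 higher and 4, 11 and 1 lower. Uqcrfs1 had 296, 272 and 314 CPM in BCR-ABL Gfi1-only cells and 202 CPM in Control ones (log2 fold change 0.58, SE 0.16, adjusted p = 0.252, edgeR), and Cox6a1 had 256, 245 and 239 CPM and 352 CPM (log2 fold change -0.48, SE 0.14, adjusted p = 0.268). DESeq2 called both of these and no other respiratory gene, a smaller share than it called among all genes tested. mt-Cytb was again below the Control set in each BCR-ABL set, with 5920, 5896 and 4803 CPM against 7709 CPM (log2 fold change -0.44).

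Whether the class difference itself differed between BCR-ABL and Control was asked with an interaction term at 15 CPM. edgeR called none of 18042 genes and 1565 (8.67%) at an unadjusted p under 0.05, and 2 respiratory genes were higher, Ndufs8 (0.64, SE 0.18, adjusted p = 0.508) and Atp5d (0.42, SE 0.16, adjusted p = 0.568), with none lower. DESeq2 called 487 genes and none of the set. Between Irf8-only cells and cells with both, edgeR called none of 15395 genes and 670 (4.35%) at an unadjusted p under 0.05, and none of the 97 respiratory genes reached that level. DESeq2 called 82 genes there. Of 84 nuclear respiratory genes 68 had positive values with a median of 0.09, where 7726 of all 15395 genes were positive with a median of 0.00.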

How the data were processed

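The deposited tables hold raw read counts for each well and Ensembl gene. The submitters' processing notes name GSNAP, HTSeq 0.5.3p3 and the mm10 build. SMART-seq2 cDNA was made into Nextera XT libraries, per the labels. Neither the strand setting nor the handling of multiply aligned reads is stated. Symbols came from GENCODE vM21 (45229 of 46078 rows). Genes took 44.9% of all reads. The rest, kept out of library sizes, were unaligned (40.9%), outside features (7.67%), ambiguous (6.24%) or from spike-ins (0.265%). Reads carry no molecular identifiers. Doublets were not called, since cells were sorted singly.

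Counts of kept wells were summed per set, or per set and class, and tested with edgeR 4.0.16 (quasi-likelihood, with TMM scaling and the filterByExpr filter; R 4.3.3). P-values were adjusted by Benjamini-Hochberg over all genes tested, with a threshold of 0.05. DESeq2 1.42.0 and limma 3.58.1 gave alternatives. The fit over all kept cells has 2 residual degrees of freedom, so the single Control set is taken to vary as the BCR-ABL sets do. Comparisons of classes keep the set as a block, since both classes come from the same plate. Shares were compared with exact permutation tests. Wells were thinned with seed 1. The comparisons of Gfi1-only cells at 15 CPM, of Irf8-only cells and the interaction were chosen after class sizes were seen. Named genes are the highest per length in each complex and genome, the 4 largest changes in each direction with all BCR-ABL sets on 1 side, isoform pairs, genes past a threshold, and the 3 smallest p-values of each other list. A gene that this rule names is not reported here. The gene set and lists were chosen with earlier results of these data known.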

Additional observations from a re-analysis of the deposited data

Results flagged for a closer look

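Nuclear genes of complex I and complex IV had BCR-ABL minus Control differences of opposite sign in different classes. In cells with both factors, the BCR-ABL minus Control difference in the complex I share of gene reads was -0.03396, -0.02911 and -0.05609 percentage points in the 3 BCR-ABL sets, and in Irf8-only cells it was 0.02272 and 0.004207 in the 2 BCR-ABL sets with such cells. The mean differences were thus -0.05318 apart. In Gfi1-only cells made at 15 CPM all 3 BCR-ABL sets were below the Control set, which put Irf8-only cells 0.0565 above them. For complex IV the same gaps were -0.05713 and 0.04396 percentage points. At these limits every BCR-ABL set of one class moved one way and every set of the other the opposite way, and the difference was not tested. With Irf8-only cells also made at 15 CPM this did not hold, since the complex I share was 0.603% and 0.577% in BCR-ABL sets 1 and 2 and 0.579% in the Control set, and the complex IV share was 0.352% and 0.330% and 0.333%, with set 2 below the Control set in each. All of these contrasts use the same Control plate.

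Wells that were not kept also held mitochondrial transcripts. All 61 of them had more than 3 reads on mitochondrially encoded genes of the set, with a median of 111 reads, a median share of 1.40% of gene reads and a median of 7299 gene reads per well.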

How the results depend on the processing

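Over the counts of calls, medians and shares, 264 values counted as unchanged under the alternatives and 41 moved. Counts were judged by size, medians against the SD between sets, and shares and ratios by direction alone. For single genes 513 kept their call and direction, 24 were called by DESeq2 only and 7 changed sign. DESeq2 called 562 genes over all cells, 292 in cells with both, 157 in Irf8-only cells, 1397 in Gfi1-only cells at 15 CPM, 1090 and 1235 in Gfi1-only cells against Irf8-only cells and cells with both, 82 in Irf8-only cells against both and 487 for the interaction, with 2 respiratory genes in Gfi1-only cells and 12 and 14 in the comparisons of classes. Elsewhere the edgeR call of Irf8 was lost (0 genes) at 15 CPM and without cells rich in basophil, mast, megakaryocyte and erythroid markers (Gfi1-only against Irf8-only), and without set 1 or 4, at 5 reads and within the spike-in range (Gfi1-only against both, 0 to 1 over the left-out sets). With no filter, 1 gene was called in Gfi1-only cells. With no replicate block, 2 genes were called against Irf8-only cells and 1 between Irf8-only cells and both, and 7 respiratory genes were higher against both.

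Against cells with both, leaving out a set gave 4 to 7 respiratory genes higher (4 without set 1, 6 without set 2, 7 without set 4) and 6 to 12 lower (6 without set 4), against 11 and 15, and the spike-in range gave 2 and 3. Without cells of other lineages 6 were higher and 12 lower against Irf8-only cells, where 1625 of all 14062 genes passed in either direction. Mitochondrially encoded medians against Irf8-only cells were 0.3384 (5 reads), 0.4273 (20 reads), 0.486 (15 CPM) and 0.3248 (without other lineages), and 0.4497 against both at 15 CPM. Nuclear medians were -0.1139 (20 reads), -0.1122 (15 CPM) and -0.1999 (without other lineages) against Irf8-only cells, and -0.0212 (20 reads), -0.0014 (spike-in range) and -0.0209 (without other lineages) against both. Over all cells, the mitochondrially encoded median was 0.0127 to 0.0912 over the left-out sets, and the nuclear median was -0.1905 for limma on mean log2(CPM + 1). Sign changes, all near 0 or for limma, were Sdhd at 0.0006 without set 4 (-0.1231 to 0.0006 over the left-out sets) and 0.0124 for limma, Uqcrfs1 at -0.012 for limma, and Atp5b at -0.0051 without set 1, -0.0052 without set 2 (-0.0052 to 0.1387 over the left-out sets), -0.0097 in thinned wells and -0.2025 for limma. The causes were not tested. The spike-in range left 1 set for the comparison with Irf8-only cells, and Control could not be left out of comparisons it did not enter. Alternatives on spike-in share and other lineages were chosen after seeing the data.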
